A study of Mus musculus with 11 samples.

Results

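Oxidative phosphorylation was followed through the 98 genes of the count table that encode its subunits: 85 nuclear genes and 13 genes of the mitochondrial genome, out of 52636 genes in all. The nuclear members were the genes whose names begin with Ndufa, Ndufb, Ndufc, Ndufs, Ndufv, Uqcr, Atp5 or Cox4 to Cox8, together with Sdha, Sdhb, Sdhc and Sdhd. Assembly factors named Ndufaf and names containing -ps were left out. The mitochondrial members were the genes named mt-Nd, mt-Co, mt-Atp and mt-Cytb. After a filter on low counts, 78 nuclear and 13 mt- members were tested among 13735 genes. The prefixes also caught Cox7a2l, Atp5s and Atp5sl, which are not structural subunits, and they missed Cyc1, the cytochrome c1 subunit of complex III.

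RNA sequencing covered CD8 T cells from the spleens of C57BL/6 mice. CD45RBhi NP396+ memory cells gave 4 libraries and CD45RBlo NP396+ memory cells gave 4. Both memory groups came from mice infected with 200000 pfu of LCMV Armstrong, an acute lymphocytic choriomeningitis virus infection, and were taken 42 to 45 days later. They were sorted with a tetramer for T cells that recognise the NP396 peptide of the viral nucleoprotein, and were separated by surface CD45RB, an isoform of the phosphatase CD45. Naive CD44lo CD8 T cells gave 3 libraries. Their labels repeat the infection text and add an entry of 6 to 8 weeks whose meaning is not stated. Nothing in the labels tells whether the libraries of a group stem from different mice, and the p-values below therefore reflect library-to-library spread, part of which may be technical. These are bulk samples, in which fewer cells of a type and less RNA per cell cannot be told apart.

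Oxidative phosphorylation takes place in the inner mitochondrial membrane. Complexes I and II pass electrons from NADH and succinate to ubiquinone, complex III passes them to cytochrome c, complex IV reduces oxygen, and complex V uses the resulting proton gradient to make ATP. Complexes I, III, IV and V combine subunits from the nucleus, imported after translation in the cytosol, with a few core subunits transcribed and translated inside the organelle, whereas complex II is wholly nuclear. Memory CD8 T cells are known for their reliance on mitochondrial respiration and for a large spare respiratory capacity.

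The depth of the libraries ran from 18024793 to 23151297 counts. Defining markers matched the labels: Cd3e had 22326 to 25376 counts in CD45RBhi, 20482 to 25205 in CD45RBlo and 19559 to 22828 in naive libraries, and Cd4 had at most 9 counts in any library. Naive libraries carried more counts of erythroid, platelet and B cell markers. The summed counts of 8 erythroid and platelet markers were 7 to 31 in CD45RBhi, 5 to 441 in CD45RBlo and 4773 to 11473 in naive libraries, and those of 6 B cell markers were 216 to 445, 302 to 425 and 938 to 1176 in the same order. Against naive, 7 of 7 tested erythroid and platelet markers were lower in both memory groups, and 3 of 5 tested B cell markers were lower in CD45RBhi and 4 of 5 in CD45RBlo. The B cell marker Cd22 was higher in both memory groups, at 119 to 245 counts in CD45RBhi, 200 to 327 in CD45RBlo and 20 to 62 in naive libraries. The summed counts of 4 dendritic cell markers went the other way, at 1979 to 4913 in CD45RBhi, 1349 to 3301 in CD45RBlo and 37 to 56 in naive libraries, with Itgax and Xcr1 higher in both memory groups. Itgax gave most of that sum in memory libraries, while Flt3 had 0 to 2 counts in CD45RBhi, 0 in CD45RBlo and 3 to 14 in naive libraries, and Siglech was at 0 in all 8 memory libraries and at 0 to 7 in naive ones. Those of 7 macrophage, monocyte and neutrophil markers overlapped, at 649 to 956, 659 to 800 and 485 to 986, and S100a9 was at 0 in all 11 libraries. Of the 4 tested, Cd68 and Itgam were higher and Lyz2 and Csf1r lower in both memory groups. The summed counts of 2 CD4 T cell markers were 0 to 3 in CD45RBhi, 0 to 6 in CD45RBlo and 25 to 30 in naive libraries, and Foxp3, the 1 tested, was lower in both memory groups. Pax5, a defining B cell factor, was at 0 in all 8 memory libraries and at 3 to 5 counts in naive ones. The erythroid, platelet, B cell, dendritic, myeloid and CD4 T cell markers named here move with the memory-against-naive results given here, and their part in those results was not tested.

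Promoters of nuclear members were searched for the binding motifs of factors known to drive respiratory chain genes: NRF1 (GCGCA, any base, then GCGC), GABPA (CCGGAAG), YY1 (AAGATGGCG) and the oestrogen-related receptors (TGACCTTG), on both strands, in the window from 250 bases before to 50 bases after the RefSeq start (GRCm38.p6). No motif contains another, though GABPA and YY1 matches can share letters. A window was found for 67 of the 85 nuclear members. The NRF1 motif was present in 25.4% of them and in 5.19% of all 27025 genes with a window, tested or not. The GABPA motif was present in 23.9% and 9.93%, the YY1 motif in 10.4% and 1.64%, and the receptor motif in 5.97% and 1.76%. A gene with several windows counted once if any of them matched. At least 1 of the motifs was present in 50.7% of members with a window and in 16.6% of all genes with a window. Shares among tested genes alone were not counted, so members were not set against expressed genes only. A match describes the letters and is not a binding site.

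The 150 bases before the start are printed below for 6 members, with motif matches on either strand in capitals, to show where the matches lie in promoters of members that moved in opposite directions. Atp5h, Cox6b1, Ndufb7 and Ndufa11 were higher in both memory groups than in naive cells. Atp5g2 carries an NRF1 match like Ndufa11 but was lower in CD45RBlo cells, and Cox7a2l, which was lower in both memory groups, has no match in its window. For Atp5g2 and Cox7a2l the start used lies well inside the annotated gene (chr15:102662864-102672352 and chr17:83501918-83517330). The outer start of these genes was not searched. All 6 members were picked with these values known. Their positions are chr11:115419920-115420069 on the minus strand (Atp5h), chr7:30626115-30626264 on the minus strand (Cox6b1), chr8:83566608-83566757 on the plus strand (Ndufb7), chr17:56717612-56717761 on the plus strand (Ndufa11), chr15:102671048-102671197 on the minus strand (Atp5g2) and chr17:83514334-83514483 on the minus strand (Cox7a2l).
Atp5h: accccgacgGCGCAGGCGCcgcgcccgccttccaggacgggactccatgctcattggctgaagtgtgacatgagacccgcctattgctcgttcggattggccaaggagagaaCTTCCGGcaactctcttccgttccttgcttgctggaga
Cox6b1: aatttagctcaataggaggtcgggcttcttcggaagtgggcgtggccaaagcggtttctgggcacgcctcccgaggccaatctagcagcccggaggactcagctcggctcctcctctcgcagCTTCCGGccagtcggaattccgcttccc
Ndufb7: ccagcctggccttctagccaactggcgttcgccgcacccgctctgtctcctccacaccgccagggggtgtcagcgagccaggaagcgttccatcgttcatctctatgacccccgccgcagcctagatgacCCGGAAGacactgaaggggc
Ndufa11: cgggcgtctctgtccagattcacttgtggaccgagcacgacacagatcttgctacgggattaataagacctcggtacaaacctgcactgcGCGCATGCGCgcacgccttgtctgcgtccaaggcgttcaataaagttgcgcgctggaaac
Atp5g2: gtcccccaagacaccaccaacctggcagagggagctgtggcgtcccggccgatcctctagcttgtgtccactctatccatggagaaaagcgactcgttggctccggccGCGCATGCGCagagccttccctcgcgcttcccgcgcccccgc
Cox7a2l: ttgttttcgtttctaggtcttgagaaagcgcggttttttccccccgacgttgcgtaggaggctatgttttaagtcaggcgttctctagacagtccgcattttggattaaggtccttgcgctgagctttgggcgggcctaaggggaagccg

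Memory cells were set against naive cells first. Relative to the average gene, nuclear members were mostly higher in memory cells, and mt- members were all on the lower side with a wide spread. Gene positions are those of GRCm38. The comparisons below used CPM, the count of a gene relative to the size of its library, with TMM scaling, which sets the typical gene to the same level in every library. Groups were tested with edgeR's quasi-likelihood F test and Benjamini-Hochberg adjustment over all 13735 genes at a threshold of 0.05. Both memory groups were set against the same 3 naive libraries, so the 2 comparisons are not independent.

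In CD45RBhi against naive cells, 41 of 78 nuclear members rose and 3 fell, where 22.3% of all genes rose and 19.1% fell. In CD45RBlo against naive cells, 15 rose and 4 fell, where 22.4% of all genes rose and 19.8% fell. The share of nuclear members that rose was thus above the background in CD45RBhi and near it in CD45RBlo cells. The median log2 fold change of the 78 members was 0.28 in CD45RBhi and 0.14 in CD45RBlo against naive, beside -0.01 and -0.01 for all genes. All 15 members that rose in CD45RBlo also rose in CD45RBhi, and 26 more passed only in CD45RBhi. That does not show a difference between the memory groups, which is tested directly further on. These counts depend on the scaling. With library size alone, the median of all genes moved to -0.16 and -0.14, and the members split into 15 higher and 7 lower in CD45RBhi and 4 higher and 11 lower in CD45RBlo, where 16.8% and 17.2% of all genes were higher and 27.1% and 26.3% lower. Under that scaling the nuclear medians were 0.13 and 0.01, still above the all-gene medians, and positive values numbered 24 of 36 in complex I, 12 of 12 in complex IV and 10 of 15 in complex V in CD45RBhi, and 16, 11 and 7 in CD45RBlo. The counts also leaned on single libraries: 25 members rose in CD45RBhi without naive replicate 1 and 21 without naive replicate 2, and 4 and 8 rose in CD45RBlo without those libraries and 9 without CD45RBlo replicate 1.

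**Figure D1:**
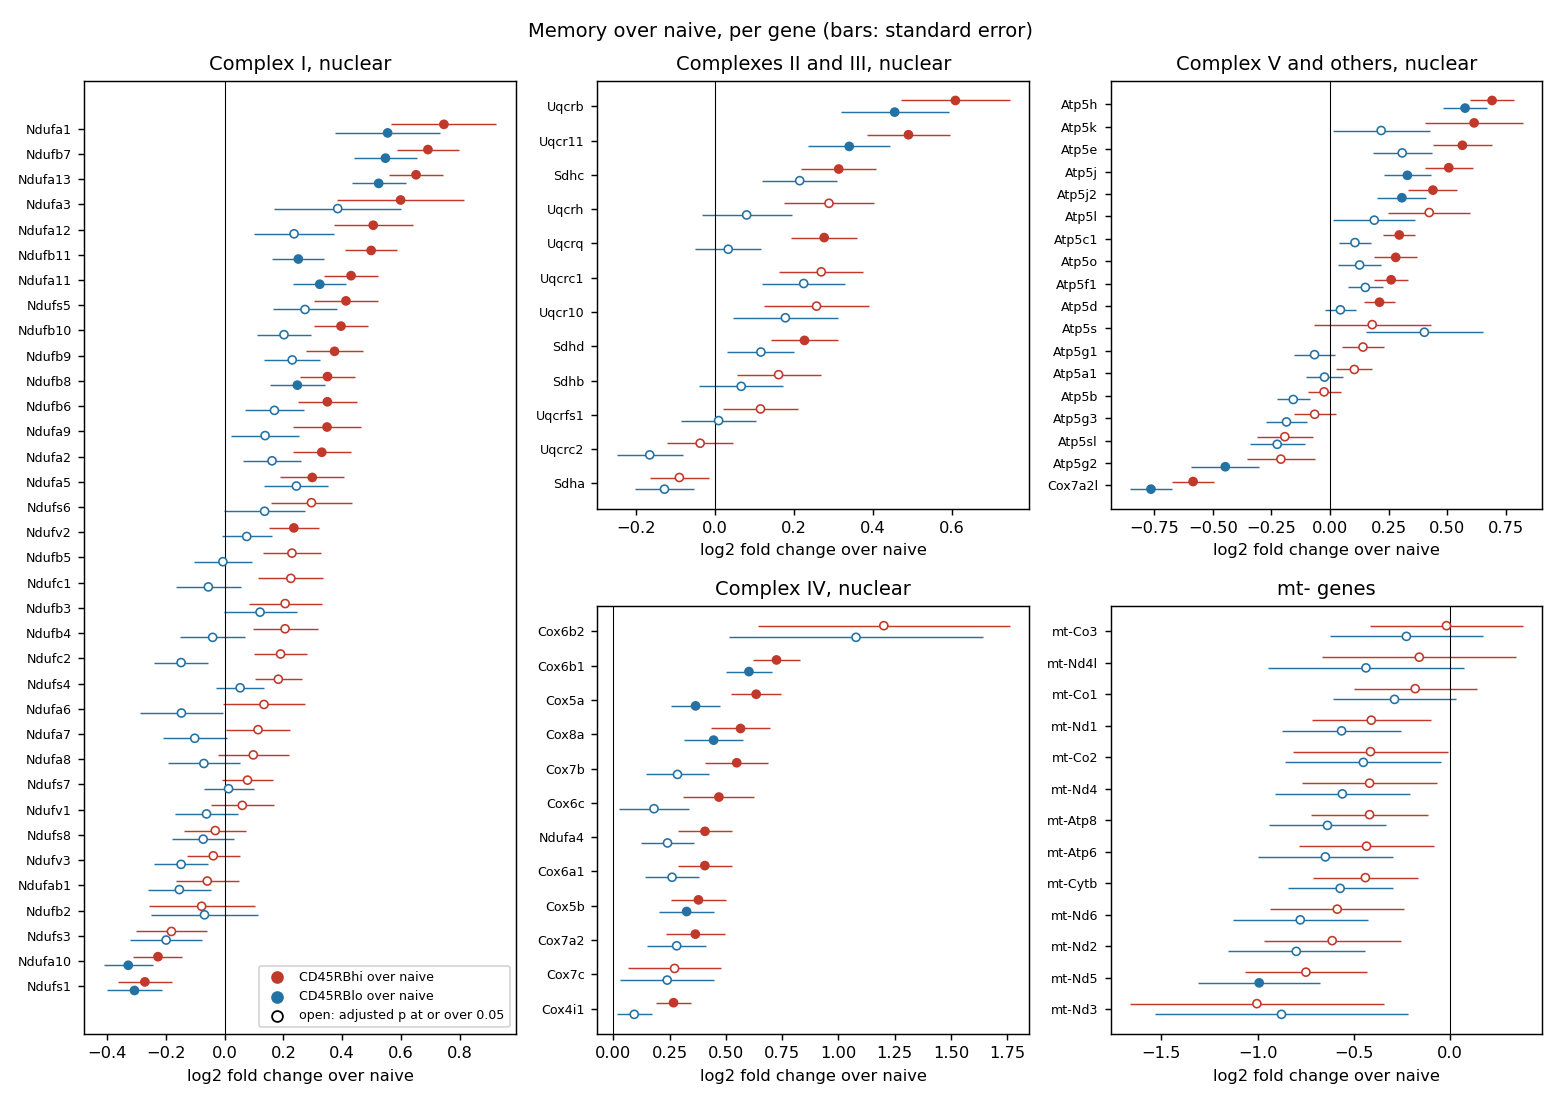
Log2 fold change over naive for each tested gene except 1 of complex I, on the TMM scale, in CD45RBhi (red) and CD45RBlo (blue) memory cells, by complex. Filled points passed an adjusted p of 0.05 and bars are standard errors. All 12 tested nuclear complex IV genes lie to the right of 0, and all 13 mt- genes lie to the left. With library size scaling 11 of the 12 stay to the right in CD45RBlo, where nuclear calls turn to 4 higher and 11 lower.

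Complex I, the NADH dehydrogenase, has 36 nuclear members here, of which 17 rose and 2 fell in CD45RBhi and 6 rose and 2 fell in CD45RBlo cells. The share that rose was 47.2% in CD45RBhi, where 22.3% of all genes rose. In CD45RBlo it was 16.7%, below the 22.4% of all genes. Accessory subunits, which surround the catalytic core, make up 29 of the 36. In CD45RBhi cells 15 of 29 rose and 1 fell, against 2 of 7 and 1 for the nuclear core subunits. In CD45RBlo cells 6 of 29 accessory subunits rose (20.7%, beside 22.4% of all genes) and 0 of 7 core subunits, with 1 lower in each set. The core set is small. Ndufb7 (chr8:83566671-83571626, plus strand), an accessory subunit of the membrane arm, was at 93.1, 118, 97.8 and 109 CPM in CD45RBhi, 92.0, 103, 90.1 and 92.9 in CD45RBlo, and 60.2, 61.6 and 72.5 in naive libraries. Every memory library lay above every naive one. Its log2 fold change was 0.69 ± 0.11 (SE, adjusted p = 0.000204) in CD45RBhi and 0.55 ± 0.11 (adjusted p = 0.0011) in CD45RBlo cells.

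Ndufa13 (chr8:69894180-69902558, minus strand), an accessory subunit also known as a cell death regulator (GRIM-19), was at 136, 124, 139 and 145 CPM in CD45RBhi, 141, 120, 115 and 123 in CD45RBlo, and 85.01, 83.1 and 91.9 in naive libraries. The groups did not overlap with naive, and the change was 0.65 ± 0.09 (adjusted p = 9.98e-05) and 0.52 ± 0.09 (adjusted p = 0.000505). Ndufa1 (chrX:37187588-37191163, minus strand), a small subunit on the X chromosome needed to assemble the membrane arm, was at 96.5, 67.4, 92.9 and 108 CPM in CD45RBhi, 101, 68.9, 80.6 and 68.4 in CD45RBlo, and 55.0, 45.7 and 62.3 in naive libraries. Replicate 2 was low in both memory groups but still above naive. Ndufa1 changed by 0.75 ± 0.18 (adjusted p = 0.00473) and 0.55 ± 0.18 (adjusted p = 0.0239), and the CD45RBlo result was lost in 5 of 21 alternative settings.

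Ndufs1 (chr1:63143596-63176833, minus strand), the longest nuclear member by coding length and a carrier of iron-sulfur clusters, went the other way. It was at 108, 136, 139 and 127 CPM in CD45RBhi, 117, 133, 124 and 123 in CD45RBlo, and 153, 149 and 160 in naive libraries. All memory libraries were below naive. It fell by 0.27 ± 0.09 on the log2 scale in CD45RBhi (adjusted p = 0.0318, lost in 7 of 21 settings) and by 0.31 ± 0.09 in CD45RBlo cells (adjusted p = 0.0173, lost in 2). Ndufa10, an accessory subunit of the membrane arm, was at 140, 163, 145 and 153 CPM in CD45RBhi, 140, 154, 137 and 128 in CD45RBlo, and 174, 170 and 184 in naive libraries, with no overlap. It fell by 0.33 ± 0.08 in CD45RBlo (adjusted p = 0.00656, kept in all 21 settings) and by 0.23 ± 0.08 in CD45RBhi cells (adjusted p = 0.0441, lost in 12). Ndufv2, a core subunit with an iron-sulfur cluster, rose in CD45RBhi cells by 0.24 (adjusted p = 0.0423, lost in 14 settings).

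Complex II, succinate dehydrogenase, also works in the tricarboxylic acid cycle. Sdhc, a membrane anchor, was at 93.1, 93.5, 95.4 and 105 CPM in CD45RBhi, 96.6, 99.998, 79.5 and 84.9 in CD45RBlo, and 78.4, 74.9 and 80.1 in naive libraries. CD45RBhi lay wholly above naive, and CD45RBlo replicate 3 lay within its range. Sdhc rose by 0.31 ± 0.09 in CD45RBhi (adjusted p = 0.0182), and its value in CD45RBlo was 0.21 ± 0.09 (adjusted p = 0.0884).

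Sdhd, the other anchor, was at 156, 180, 171 and 179 CPM in CD45RBhi, 146, 172, 153 and 165 in CD45RBlo, and 155, 139 and 145 in naive libraries. It passed in CD45RBhi only narrowly (0.23 ± 0.09, adjusted p = 0.0486, lost in 16 of 21 settings), and its value in CD45RBlo was 0.12 ± 0.08 (adjusted p = 0.302). The catalytic flavoprotein Sdha was at 760, 822, 828 and 790 CPM in CD45RBhi, 728, 853, 727 and 810 in CD45RBlo, and 892, 824 and 840 in naive libraries, and the ranges overlapped (-0.09 ± 0.07, adjusted p = 0.36, and -0.13 ± 0.07, adjusted p = 0.191). The iron-sulfur subunit Sdhb was at 168, 220, 201 and 191 CPM in CD45RBhi, 177, 208, 171 and 175 in CD45RBlo, and 173, 159 and 191 in naive libraries. Replicate 2 was its highest library in both memory groups, and it did not pass in either (0.16 ± 0.11, adjusted p = 0.249, and 0.07 ± 0.11, adjusted p = 0.655).

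Complex III, the cytochrome bc1 complex, had 3 of 8 nuclear members higher in CD45RBhi and 2 higher in CD45RBlo cells, with none lower. These shares were 37.5% and 25%, beside 22.3% and 22.4% of all genes. The members that rose were Uqcrb and Uqcr11 in both groups and Uqcrq in CD45RBhi, where its call was lost in 7 of 21 settings. Uqcrb, a small subunit near the ubiquinone pocket, was at 97.9, 73.9, 91.9 and 92.8 CPM in CD45RBhi, 90.9, 75.8, 71.1 and 82.5 in CD45RBlo, and 55.9, 49.4 and 69.9 in naive libraries. No memory library overlapped with naive, although the margin over naive replicate 3 was small. The change was 0.61 ± 0.14 (adjusted p = 0.00324) and 0.46 ± 0.14 (adjusted p = 0.0173, lost in 3 settings). Cyc1, the electron-carrying subunit outside the name rule, had values of -0.14 (adjusted p = 0.271) and -0.19 (adjusted p = 0.138).

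Complex IV, cytochrome c oxidase, had the largest share of tested nuclear members higher of the 5 complexes in both memory groups. Of its 19 nuclear members 12 were tested, and 10 rose in CD45RBhi and 4 in CD45RBlo cells, with none lower. The shares higher were 83.3% and 33.3%, beside 22.3% and 22.4% of all genes. In CD45RBlo the lead over complex III (25%) rests on few genes. The medians were 0.44 and 0.28. Cox6b1 (chr7:30616861-30626151, minus strand), which sits at the interface of the complex IV dimer, was at 154, 130, 152 and 167 CPM in CD45RBhi, 160, 128, 133 and 134 in CD45RBlo, and 92.6, 86.0 and 95.2 in naive libraries. The lowest memory library was far above the highest naive one. It rose by 0.72 ± 0.10 (adjusted p = 0.00012) and 0.60 ± 0.10 (adjusted p = 0.000465) and kept its call in all 21 alternative settings in both groups.

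Cox5a, a matrix-side subunit, was at 54.3, 48.4, 55.0 and 62.6 CPM in CD45RBhi, 46.0, 40.9, 44.4 and 51.3 in CD45RBlo, and 33.5, 36.4 and 36.4 in naive libraries. The order was CD45RBhi, CD45RBlo, naive in the means, with overlap only between the memory groups. Cox5a changed by 0.63 ± 0.11 (adjusted p = 0.000535) and 0.36 ± 0.11 (adjusted p = 0.0175). Cox8a, a small membrane subunit, was at 196, 153, 172 and 209 CPM in CD45RBhi, 203, 139, 165 and 166 in CD45RBlo, and 119, 126 and 125 in naive libraries, and every memory library was above naive. It changed by 0.56 (adjusted p = 0.00385) and 0.45 (adjusted p = 0.015). Cox4i1, the largest nuclear subunit of the complex and a site of its regulation, was at 259, 253, 261 and 299.8 CPM in CD45RBhi, 243, 245, 224 and 239 in CD45RBlo, and 218, 219 and 231 in naive libraries. It passed in CD45RBhi alone (0.27, adjusted p = 0.0139), where no library overlapped with naive.

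Cox5b, Cox6a1, Cox7a2, Cox7b and Ndufa4, further small subunits, passed in CD45RBhi at different margins. Cox6a1 was at 221, 177, 205 and 204 CPM in CD45RBhi, 224, 157, 175 and 173 in CD45RBlo, and 140.3, 154 and 162 in naive libraries, with CD45RBlo replicate 2 inside the naive range. Cox7b was at 79.0, 55.5, 78.2 and 76.9 CPM in CD45RBhi, 70.8, 53.4, 58.3 and 58.8 in CD45RBlo, and 48.3, 45.5 and 54.7 in naive libraries, with replicate 2 again the lowest memory library in both groups. Ndufa4, once assigned to complex I and now to complex IV, was at 123, 105, 123 and 142 CPM in CD45RBhi, 128, 98.3, 110.3 and 102 in CD45RBlo, and 90.9, 86.1 and 101 in naive libraries, and CD45RBlo replicate 2 again fell in the naive range. Cox5b was at 66.0, 52.9, 63.3 and 67.0 CPM in CD45RBhi, 63.2, 54.1, 68.0 and 54.9 in CD45RBlo, and 45.2, 44.3 and 54.3 in naive libraries. It overlapped with naive in replicate 2 of both memory groups and rose in both groups by the test (0.38, adjusted p = 0.0247, lost in 8 of 21 settings, and 0.33, adjusted p = 0.0475, lost in 11), whereas Cox6a1 (0.41, adjusted p = 0.0151), Cox7b (0.55, adjusted p = 0.00682) and Ndufa4 (0.41, adjusted p = 0.0152) passed in CD45RBhi. The CD45RBhi call was lost in 5 of 21 settings for Ndufa4, in 2 for Cox6a1 and in 0 for Cox7b.

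Several complex IV subunits exist as a widespread form and a form known from muscle, lung or testis. The widespread forms carried nearly all counts here. Cox6a1 was at 309.6 to 386.6 CPM per kb of transcript in CD45RBhi, 275.2 to 391.7 in CD45RBlo and 245.8 to 284.1 in naive libraries, whereas Cox6a2 had 0 to 6 counts in any library. Cox4i2, Cox7b2, Cox8b and Ndufa4l2 had 0 counts in all 11 libraries, Cox8c had 1 count in 1 library and Cox7a1 had 0 to 6. A count of 0 allows up to 3 counts, or 0.130 to 0.166 CPM in these libraries, which covers counting error only. Cox6b2, a form known from testis, had 2 to 18 counts. It was at 8 to 18 counts in CD45RBhi, 7 to 18 in CD45RBlo and 2 to 9 in naive libraries, and did not pass (adjusted p = 0.104 and 0.146).

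Complex V, the ATP synthase, had 9 of 15 nuclear members higher in CD45RBhi, and 3 higher and 1 lower in CD45RBlo cells. The shares higher were 60% and 20%, beside 22.3% and 22.4% of all genes, so the CD45RBlo share was near the background. All 4 genes of the peripheral stalk, which holds the catalytic head still, rose in CD45RBhi, and 2 of the 4 rose in CD45RBlo cells. Atp5h (chr11:115415689-115419962, minus strand), the stalk subunit d, was at 259, 214, 233 and 264 CPM in CD45RBhi, 251, 219, 211 and 215 in CD45RBlo, and 148, 143 and 160 in naive libraries. No memory library came near naive. It rose by 0.69 ± 0.10 (adjusted p = 8.61e-05) and 0.58 ± 0.10 (adjusted p = 0.000336), in all 21 settings in both groups. Close copies of its transcript hold 4890 counts against its own 46651, so part of its level is uncertain. Such copies exist for 11 of the 85 nuclear members. They hold 2407 counts against 24495 for Atp5o of the same stalk, 2213 against 13712 for Ndufs3 and 952 against 9023 for Ndufs6. For Atp5l it was 608 against 5644, for Atp5k 211 against 2352 and for Uqcrb 751 against 17163. Copies held little for Atp5c1 (734 against 60276), Atp5g2 (46 against 8158) and Ndufb11 (22 against 19991).

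In the catalytic head, Atp5e, Atp5c1 and Atp5d of the central stalk rose in CD45RBhi cells by 0.56, 0.30 and 0.21 (adjusted p = 0.00304, 0.00394 and 0.0245). The call was lost in 0 of 21 settings for Atp5e, in 1 for Atp5c1 and in 11 for Atp5d. The large head subunits Atp5b and Atp5a1 had values of -0.02 and 0.10 and did not pass. No head or central stalk gene passed in CD45RBlo cells.

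The c subunit, whose ring turns as protons pass, is encoded by Atp5g1, Atp5g2 and Atp5g3, which give the same mature protein. Per kb of transcript, Atp5g3 was highest, at 204.2 to 246.9 CPM in CD45RBhi, 198.2 to 237.2 in CD45RBlo and 234.8 to 244.8 in naive libraries. Atp5g2 followed at 40.5 to 58.2, 35.5 to 53.1 and 57.6 to 60.1, and Atp5g1 was lowest at 18.5 to 22.3, 16.2 to 17.7 and 16.7 to 18.9. The 3 ranges did not overlap between genes in any group.

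Atp5g2 was at 40.2, 29.6, 36.9 and 42.5 CPM in CD45RBhi, 38.8, 25.97, 31.6 and 30.3 in CD45RBlo, and 42.1, 43.9 and 43.3 in naive libraries. CD45RBlo lay wholly below naive, and CD45RBhi replicate 4 reached into the naive range. Atp5g2 fell by 0.45 ± 0.15 in CD45RBlo (adjusted p = 0.0255, lost in 6 of 21 settings), and its value in CD45RBhi was -0.21 ± 0.15 (adjusted p = 0.273).

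Cox7a2l (chr17:83501918-83517330, minus strand), matched only by its name, had the largest fall of any nuclear member in both comparisons. Its product is known as a factor for joining complexes III and IV into supercomplexes. The annotated coding sequence has 333 bases, and whether the form in this mouse strain joins the complexes was not tested. The values describe RNA only. Cox7a2l was at 78.8, 68.2, 65.9 and 70.8 CPM in CD45RBhi, 62.5, 68.0, 57.2 and 62.6 in CD45RBlo, and 109, 104 and 106 in naive libraries. The memory libraries were all far below naive. It fell by 0.58 ± 0.09 in CD45RBhi (adjusted p = 0.00018) and by 0.76 ± 0.09 in CD45RBlo cells (adjusted p = 1.7e-05), in all 21 settings. Cox7a2, the complex IV subunit that it resembles, rose in CD45RBhi cells by 0.36 ± 0.13 (adjusted p = 0.0398, lost in 9 of 21 settings), with a value of 0.28 in CD45RBlo (adjusted p = 0.103).

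All 13 mt- genes were on the lower side of naive in both memory groups, with median log2 fold changes of -0.42 in CD45RBhi and -0.57 in CD45RBlo, and the direction of the medians was the same under every scaling tried. Few passed. None did in CD45RBhi, where 1 had an unadjusted p under 0.05 and DESeq2 also called 0. In CD45RBlo 1 fell, mt-Nd5 (chrM:11742-13565, plus strand), a proton-pumping core subunit of complex I. It was at 794, 270, 538 and 488 CPM in CD45RBhi, 586, 235, 506 and 441 in CD45RBlo, and 783, 940 and 913 in naive libraries. CD45RBlo lay wholly below naive, and CD45RBhi replicate 1 lay inside the naive range. The change was -0.75 ± 0.32 (adjusted p = 0.0748) in CD45RBhi and -0.99 ± 0.32 (adjusted p = 0.0229) in CD45RBlo cells. The CD45RBlo call was lost without naive replicate 2 (adjusted p = 0.0682) and without naive replicate 3 (adjusted p = 0.0633).

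The most abundant mt- genes showed a common order of libraries. mt-Co1, the catalytic core of complex IV, was at 2741, 937, 1783 and 1492 CPM in CD45RBhi, 2257, 919, 1868 and 1410 in CD45RBlo, and 1779, 2136 and 2000 in naive libraries. mt-Cytb, the core of complex III, was at 2065, 829, 1375 and 1236 in CD45RBhi, 1763, 806, 1335 and 1123 in CD45RBlo, and 1671, 1972 and 1960 in naive libraries. mt-Nd1, a complex I core subunit, was at 1208, 441, 764 and 628 in CD45RBhi, 942, 398, 790 and 603 in CD45RBlo, and 878, 1056 and 1095 in naive libraries. In each of them replicate 1 was the highest and replicate 2 the lowest of both memory groups, and memory overlapped with naive. Their adjusted p ran from 0.113 (mt-Cytb, CD45RBlo) to 0.684 (mt-Co1, CD45RBhi).

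mt-Nd2, a complex I core gene, was at 280.5, 84.5, 149.6 and 146 CPM in CD45RBhi, 214, 76.6, 160.1 and 129.8 in CD45RBlo, and 217, 258 and 283 in naive libraries. mt-Nd6, the complex I gene on the other strand, was at 80.5, 28.6, 43.4 and 41.5 in CD45RBhi, 58.2, 20.6, 54.3 and 36.9 in CD45RBlo, and 62.1, 71.2 and 85.2 in naive libraries. CD45RBlo lay wholly below naive for both genes, though neither passed (-0.80, adjusted p = 0.0897, and -0.78, adjusted p = 0.0927). mt-Nd4, whose product pumps protons, was at 299, 89.6, 176 and 167 in CD45RBhi, 254, 92.3, 179 and 137 in CD45RBlo, and 236, 239.7 and 257 in naive libraries, and its groups overlapped. The low-count complex I genes mt-Nd3 and mt-Nd4l ranged from 0.130 to 1.60 and 0.521 to 2.56 CPM in CD45RBhi, 0.194 to 1.23 and 0.485 to 1.55 in CD45RBlo, and 1.01 to 2.31 and 1.38 to 1.42 in naive libraries.

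mt-Co2 and mt-Co3, the other complex IV core genes, had wide memory ranges around naive. mt-Co3 was at 70.8, 19.1, 48.0 and 51.8 CPM in CD45RBhi, 66.1, 19.7, 45.0 and 33.6 in CD45RBlo, and 42.9, 47.7 and 53.5 in naive libraries, and mt-Co2 ranged from 10.8 to 43.2, 13.03 to 42.9 and 31.5 to 41.2 in the same group order. In complex V, mt-Atp6, the channel subunit, ranged from 14.7 to 43.0 in CD45RBhi, 12.6 to 36.7 in CD45RBlo and 29.9 to 43.7 in naive libraries. mt-Atp8, a short gene that overlaps mt-Atp6, was at 18.1, 6.99, 11.8 and 10.8 in CD45RBhi, 10.5, 5.38, 12.4 and 12.7 in CD45RBlo, and 15.3, 16.1 and 16.3 in naive libraries. It lay wholly below naive in CD45RBlo without passing (-0.64, adjusted p = 0.114).

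Levels of some mt- genes are uncertain, because 8 of the 13 have a copy of at least 95% identity over at least 50% of their transcript. Copies on chromosome 1 took 53.3 to 59.5% of the summed counts of mt-Co3 and Gm28437, 57.8 to 61.9% for mt-Atp6 and Gm10925, 35.2 to 45.7% for mt-Co2 and Gm28661, and 43.4 to 78.1% for mt-Nd3 and Gm28438. For mt-Nd4 and Gm28439 the share was only 1.15 to 1.47%. Per kb of transcript, mt-Co1 was at 606.5 to 1774 CPM in CD45RBhi, 594.9 to 1461 in CD45RBlo and 1151 to 1382 in naive libraries, and mt-Cytb at 725 to 1805, 704.9 to 1542 and 1461 to 1723. The 5 mt- genes without such a copy (mt-Nd1, mt-Nd2, mt-Nd6, mt-Cytb and mt-Atp8) had the same lower sign as the rest. mt-Nd5 and mt-Nd6 overlap on opposite strands, and the strand setting of the counts is not given in the sources used here.

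Summed over members, the nuclear share of all counts was 1.03, 1.09, 1.07 and 1.10% in CD45RBhi, 0.995, 1.04, 0.958 and 0.964% in CD45RBlo, and 1.04, 1.01 and 1.11% in naive libraries. The 3 groups overlap, and the sum is led by a few abundant genes that did not rise, such as Sdha and Atp5b. The mt- share was 0.728, 0.272, 0.479 and 0.415% in CD45RBhi, 0.594, 0.256, 0.499 and 0.388% in CD45RBlo, and 0.608, 0.729 and 0.737% in naive libraries. Most memory libraries fell below naive in this share. The exception was CD45RBhi replicate 1, which was at the level of the upper naive libraries. Shares are unscaled and weight each gene by its counts. Their group means for nuclear members were 1.07 ± 0.0294%, 0.990 ± 0.0394% and 1.05 ± 0.0484% (SD), which differs from the rise seen gene by gene after TMM scaling, and the cause was not tested.

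**Figure D2:**
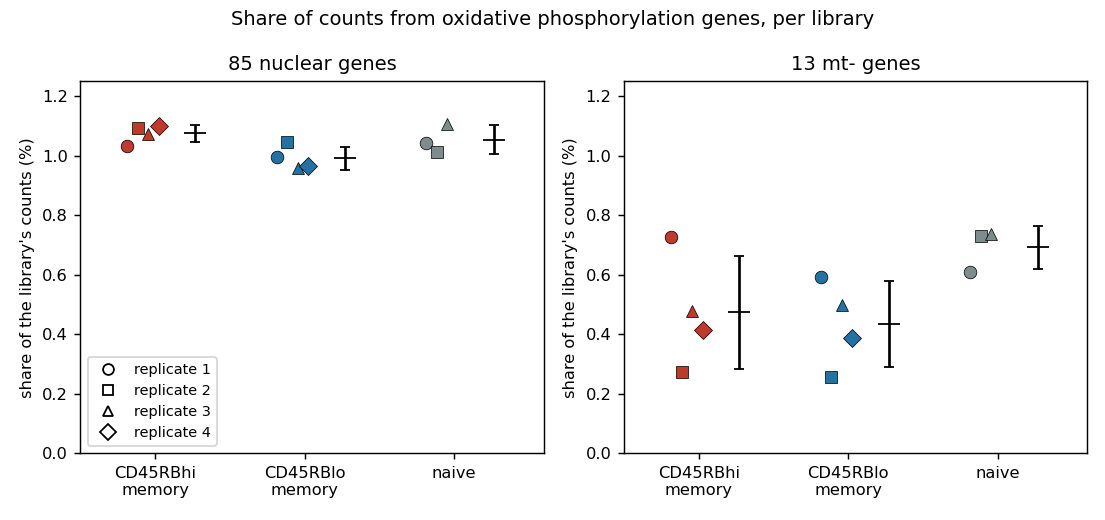
Share of each library's counts from the 85 nuclear (left) and 13 mt- genes (right) in CD45RBhi, CD45RBlo and naive libraries. Symbols mark the replicate number and the black mark is the group mean with its SD. Nuclear shares lie between 0.958 and 1.11%, whereas mt- shares range from 0.256 to 0.737%, with replicate 1 highest and replicate 2 lowest in both memory groups.

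The mt- members varied together by replicate number. In replicate 1 of both memory groups 13 of 13 lay above their group mean, and in replicate 2 of both groups 0 of 13 did. In replicate 3 it was 9 of 13 in CD45RBhi and 13 of 13 in CD45RBlo, and in replicate 4 it was 5 and 3. The median coefficient of variation of mt- members was 45.0% in CD45RBhi, 40.6% in CD45RBlo and 10.98% in naive libraries. For nuclear members it was 9.13, 8.93 and 6.22%, and for all tested genes 17.4, 15.8 and 10.6%. Mitochondrial ribosomal RNA per mt- member count was 0.177 in replicate 2 of both memory groups, 0.289 to 0.339 in the other 6 memory libraries and 0.178 to 0.243 in naive libraries. Without replicate 1 of both memory groups, 7 mt- members fell in CD45RBhi and 7 in CD45RBlo against naive, where 19.8% and 19.6% of all genes fell. That alternative was chosen after seeing the data. Without CD45RBhi replicate 1 alone, 5 fell in CD45RBhi and 3 in CD45RBlo, and without CD45RBlo replicate 1 alone 4 fell in CD45RBlo. Of all genes, 18.9%, 20.4% and 18.4% fell in these 3 comparisons. What sets replicates 1 and 2 apart was not tested.

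**Figure D3:**
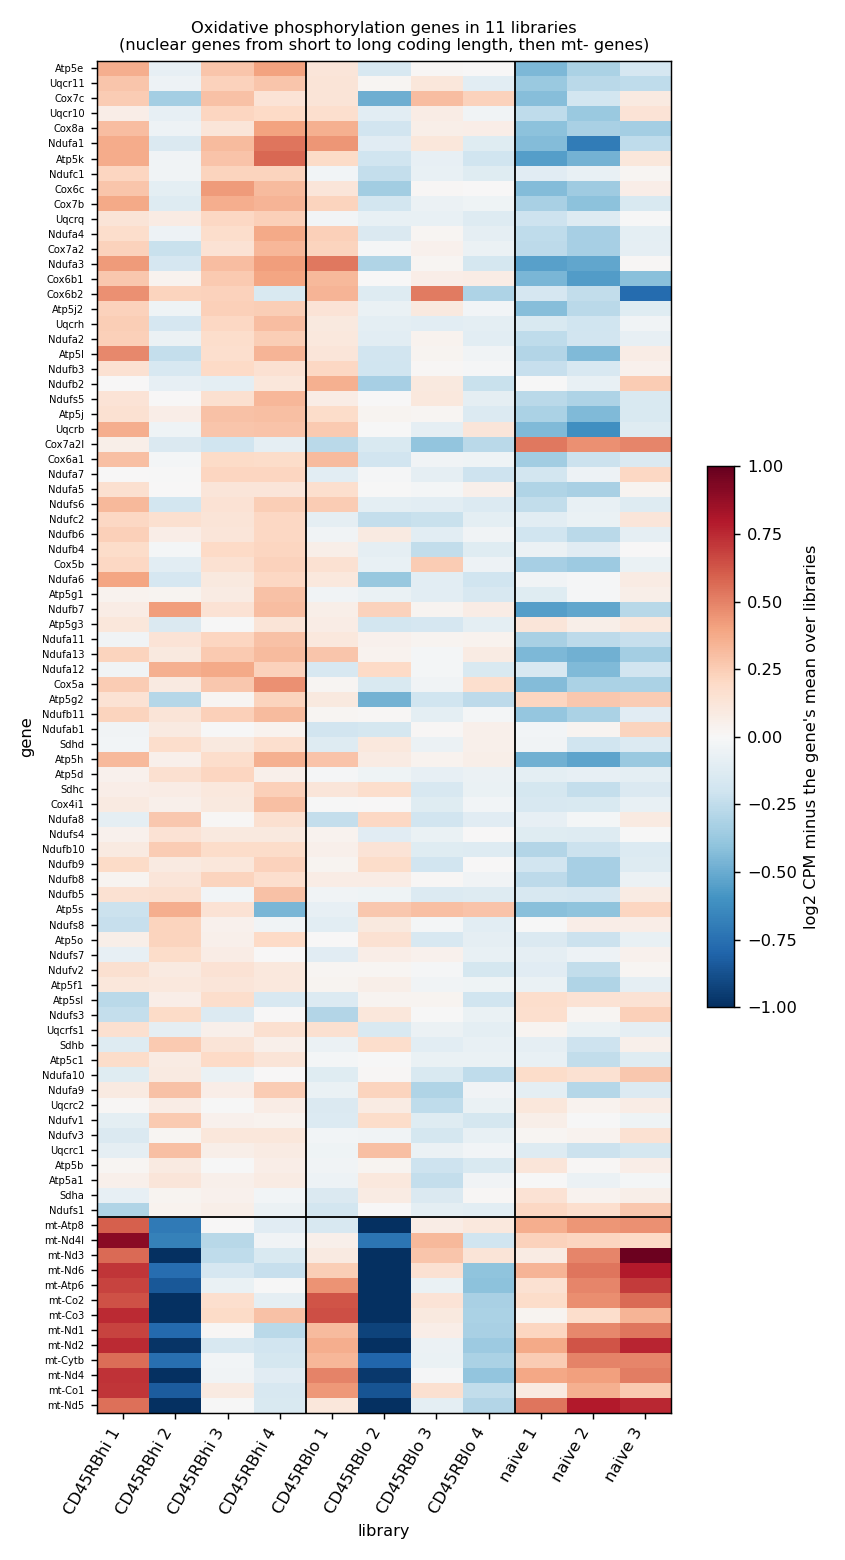
Log2 CPM of each tested gene except 1 of complex I minus its mean over the 11 libraries, with nuclear genes from short (top) to long coding length and mt- genes below the line. Colours stop at 1 and -1. Short nuclear genes are mostly red in CD45RBhi replicates 1, 3 and 4, paler in the other memory libraries and mostly blue in naive ones, long ones change little, and mt- genes are deep blue in replicate 2 of both memory groups.

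Among nuclear members, the change against naive went with the length of the coding sequence. Across the 78 members, Spearman's rho between coding length and log2 fold change was -0.55 in CD45RBhi and -0.48 in CD45RBlo against naive. Over 11442 genes with a coding length it was -0.11 and -0.03. The 43 members of up to 450 coding bases had a median of 0.41 in CD45RBhi and 0.24 in CD45RBlo, with 26 and 12 of them higher and 1 and 2 lower. The 24 members of 450 to 900 bases had medians of 0.23 and 0.08, with 13 and 3 higher. The 11 longest had medians of -0.02 and -0.13, with 2 higher and 2 lower in CD45RBhi and 0 higher and 2 lower in CD45RBlo. For all genes in these 3 classes the medians stayed between -0.02 and 0.13 in CD45RBhi and between 0.02 and 0.06 in CD45RBlo. Genes are not independent replicates, the points share the same libraries, and small accessory subunits and short length go together, so these values are a description.

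Length also went with differences between replicates of 1 group. Across the same 78 members, the deviation of a library from its group mean had a rho with coding length of 0.78 in CD45RBhi replicate 2 and 0.74 in CD45RBlo replicate 2, against -0.64 and -0.67 in replicate 1 of the 2 groups. It was 0.52, 0.03 and -0.50 in naive replicates 1, 2 and 3. Over all genes the sign was the other way in these 4 memory libraries, at -0.23 and -0.20 in replicate 2 and 0.22 and 0.13 in replicate 1. Transcript length and GC content were regressed out of each library over all genes as an alternative correction. That correction follows the trend of all genes, so it need not remove the coding-length trend among members. With that correction 35 nuclear members rose and 3 fell in CD45RBhi, and 29 rose and 4 fell in CD45RBlo against naive. The medians were then 0.24 and 0.20.

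**Figure D4:**
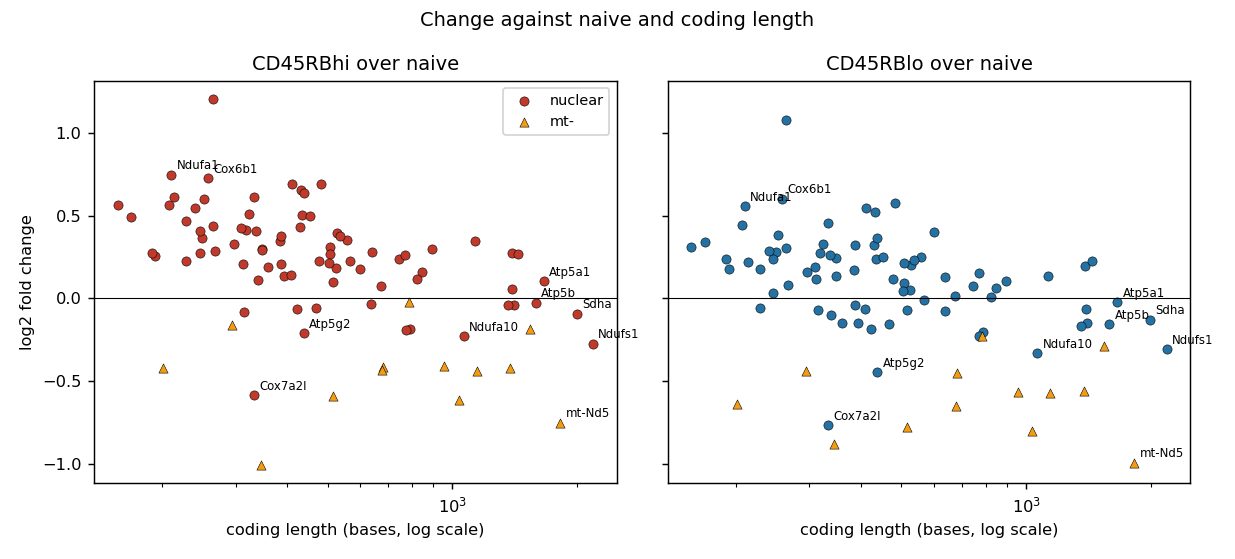
Log2 fold change over naive on the TMM scale against coding length for each tested gene, in CD45RBhi (left) and CD45RBlo (right) cells. Circles are nuclear and triangles mt- genes. Short nuclear genes lie highest and the longest lie near or below 0, and mt- genes lie below 0 at all lengths.

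The comparison of CD45RBhi with CD45RBlo cells asks how the memory populations differ. No member passed without pairing, where 0.0801% of all genes were higher and 0.0437% lower. Among the 78 nuclear members 76 had a higher mean in CD45RBhi, beside 48.9% of all genes, with a median log2 fold change of 0.14. The exceptions were Atp5s and Ndufb2, at -0.22 and -0.01. A total of 15 had an unadjusted p under 0.05, all higher in CD45RBhi, beside 1236 of the 13735 genes in either direction, and DESeq2 called 1, Ndufc2 (adjusted p = 0.0269). Among mt- members 12 of 13 were higher in CD45RBhi, with a median of 0.19, but this ranged from -0.17 to 0.38 when single libraries were left out. For mt- members 0 had an unadjusted p under 0.05, and DESeq2 called 0. Between the memory groups, rho with coding length was -0.37 in nuclear members and -0.22 over 11442 genes. The 43 members of up to 450 coding bases had a median of 0.17, beside 0.09 for all 952 such genes. For 450 to 900 bases the medians were 0.11 and 0.03, and for longer genes 0.11 and -0.03. The part of length in the shift of nuclear members was not tested.

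Same-numbered CD45RBhi and CD45RBlo libraries deviate from their group means together, so they were also compared as 4 pairs. With the replicate number as a block, 4 of 78 nuclear members rose in CD45RBhi and 0 fell, where 2.52% of all genes rose and 3.08% fell. Ndufc2 (chr7:97400003-97407802, plus strand), a small accessory subunit of complex I, was at 48.9, 47.4, 46.3 and 48.9 CPM in CD45RBhi, 39.7, 35.8, 36.2 and 39.6 in CD45RBlo, and 39.4, 40.4 and 46.1 in naive libraries. CD45RBhi lay wholly above CD45RBlo. Its change in the paired fit was 0.34 ± 0.07 (adjusted p = 0.0202), higher in 4 of 4 pairs.

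Ndufb11, an X-linked membrane-arm subunit of complex I, was at 104, 97.2, 105 and 111 CPM in CD45RBhi, 90.5, 89.8, 83.0 and 88.0 in CD45RBlo, and 67.8, 71.2 and 82.4 in naive libraries. The 3 groups did not overlap, and the paired change was 0.25 ± 0.06 (adjusted p = 0.0436). Cox6c, a small regulatory subunit of complex IV, was at 89.0, 68.3, 98.4 and 91.3 CPM in CD45RBhi, 79.6, 57.4, 73.7 and 73.4 in CD45RBlo, and 54.2, 57.1 and 76.7 in naive libraries. Replicate 2 was lowest in both memory groups, so the groups overlapped while all 4 pairs pointed 1 way (0.29 ± 0.07, adjusted p = 0.0287). Cox5a, whose values stand above, changed by 0.27 ± 0.07 (adjusted p = 0.0413).

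These 4 calls rest on the full set of pairs. Leaving out replicate number 1 left 1 nuclear member called, leaving out number 2 gave 8, and leaving out number 3 or number 4 gave 0. With length and GC content regressed out as well, 0 passed and the nuclear median fell to 0.06.

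Within pairs, 38 of 78 nuclear members were higher in CD45RBhi in all 4 pairs, where 13.8% of all genes were, and 0 were lower in all 4, where 14.3% were. A further 32 were higher in 3 pairs. The pairs differed in size: the nuclear median of CD45RBhi minus CD45RBlo was 0.06, 0.06, 0.20 and 0.27 log2 units in pairs 1 to 4. For mt- members the pair medians were 0.36, 0.05, -0.05 and 0.17, and 3 of 13 were higher in all 4 pairs. Per complex, the medians without pairing ran from 0.10 (complex II) to 0.17 (complex V), with 0.14, 0.14 and 0.13 for the nuclear genes of complexes I, III and IV.

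**Figure D5:**
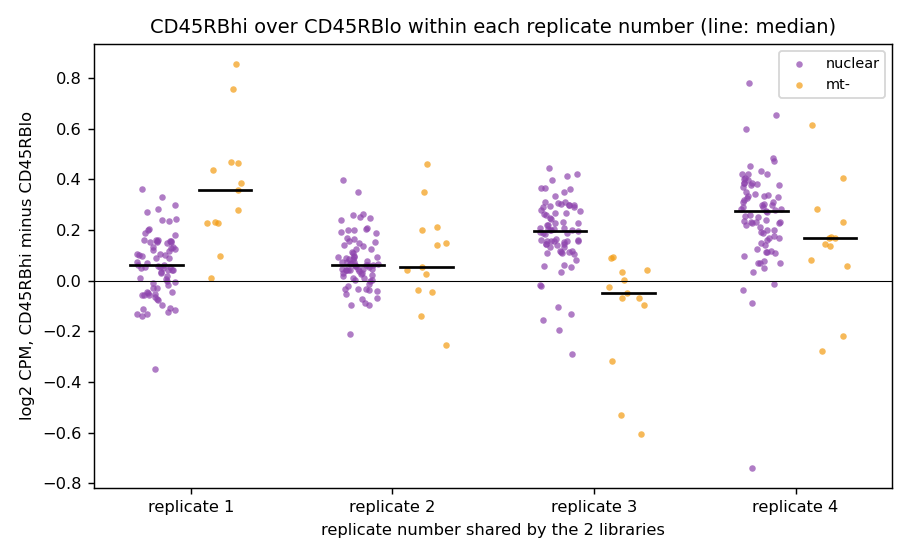
Log2 CPM in CD45RBhi minus CD45RBlo within each replicate number, for the 78 nuclear (purple) and 13 mt- (orange) tested genes. Lines are medians. Nuclear medians are above 0 in all 4 pairs, from 0.06 to 0.27, whereas mt- medians run from -0.05 to 0.36.

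Other genes of the pathway were read from lists of mitochondrial genes. The counts of every list below stand beside all tested genes. Of these, 22.3% rose and 19.1% fell in CD45RBhi against naive, and 22.4% rose and 19.8% fell in CD45RBlo. The lists are short, and many of their counts lie near these shares. Of 14 complex I assembly factors tested, 2 rose and 2 fell in CD45RBhi and 1 rose and 3 fell in CD45RBlo against naive, with Nubpl, which delivers iron-sulfur clusters, at -0.94 and -1.19 (adjusted p = 0.0101 and 0.00222). Of 13 factors for complexes II, III and V, 3 rose and 2 fell in CD45RBhi and 1 rose and 2 fell in CD45RBlo. Lyrm7, a factor for the Rieske protein of complex III, had values of -1.74 and -1.92 (adjusted p = 2.51e-05 and 1.01e-05). Of 19 complex IV factors, 3 rose and 1 fell in CD45RBhi and 3 rose and 3 fell in CD45RBlo, led by Cmc2, a copper-delivery partner, at 1.01 and 0.75 (adjusted p = 2.72e-05 and 0.000308), and by Cox10, a heme A synthesis enzyme, at -0.48 and -0.79 (adjusted p = 0.00624 and 0.000179).

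Genes that copy, transcribe and process mitochondrial DNA and RNA had 0 higher and 4 lower of 22 in CD45RBhi, and 0 higher and 10 lower in CD45RBlo. The share lower was near that of all genes in CD45RBhi (19.1%) and above it in CD45RBlo (19.8%). Lrpprc, which stabilises mitochondrial messenger RNA, had values of -0.41 and -0.57 (adjusted p = 0.00369 and 0.000308), and Tfam, which packages mitochondrial DNA, -0.12 (adjusted p = 0.283) and -0.24 (adjusted p = 0.0291). Protein import had 5 higher and 8 lower of 23 in CD45RBhi and 2 higher and 8 lower in CD45RBlo, with the chaperone Hspa9 at -0.42 and -0.60. The tricarboxylic acid cycle had 4 higher and 1 lower of 18 in CD45RBhi and 4 higher and 3 lower in CD45RBlo. Idh2, the mitochondrial NADP-linked isocitrate dehydrogenase, fell in both, at -2.01 and -1.83 (adjusted p = 2.1e-08 and 4.49e-08).

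Among 13 genes of cytochrome c and ubiquinone 1 rose and 1 fell in CD45RBhi, and 1 rose and 3 fell in CD45RBlo. Cycs, the mobile carrier cytochrome c, did not pass in either (0.19 and -0.05). Carriers and uncoupling proteins had 4 of 10 higher in CD45RBhi and 1 in CD45RBlo, with 0 lower. Higd1a, a small protein that binds complex IV, was at 0.61 and 0.45. In the paired fit Slc25a5, the ADP and ATP exchanger, was higher in CD45RBhi than in CD45RBlo (0.28, adjusted p = 0.0186). Mitochondrial antioxidant genes had 4 of 12 higher and 2 lower in both memory groups, with the glutathione reductase gene Gsr at 0.74 and 0.57 and the glutathione peroxidase gene Gpx1 at -0.50 and -0.85. Gpx1 was also higher in CD45RBhi than in CD45RBlo in the paired fit (0.35, adjusted p = 0.00457). Without pairing, 0 genes of these lists passed between CD45RBhi and CD45RBlo.

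Regulators of mitochondrial biogenesis were mostly not called. Of 13, 0 rose and 3 fell in CD45RBhi, and 1 rose and 2 fell in CD45RBlo against naive, where 19.1% and 19.8% of all genes fell. The coactivator gene Ppargc1b was at -0.58 and -0.67 (adjusted p = 0.00721 and 0.00299). Esrra, which encodes an oestrogen-related receptor, rose in CD45RBlo by 0.80 (adjusted p = 0.00143), with 0.41 in CD45RBhi (adjusted p = 0.0558), and in the paired fit it was lower in CD45RBhi than in CD45RBlo by 0.38 on the log2 scale (-0.38, adjusted p = 0.0329). Among tested members with a window, 11 of 16 with the GABPA motif rose in CD45RBhi against naive (median 0.46), and 21 of 48 without it (median 0.25). For NRF1 these were 9 of 17 (median 0.28) and 23 of 47 (median 0.29), for YY1 3 of 7 (median 0.30) and 29 of 57 (median 0.28), and for the receptor motif 2 of 4 (median 0.32) and 30 of 60 (median 0.28). Of all tested genes 22.3% rose, and the share among all genes that carry each motif was not counted. Members with and without a motif were not matched for coding length, and a part of the motifs was not tested.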

How the data were processed

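RNA levels were read from a table of raw counts per gene for 11 libraries, which the authors deposited. Per the submitters' processing notes, SAMtools, featureCounts and DESeq2 were used with mm10 and GRCm38. The labels and notes used here name no version, aligner, annotation or strand setting. Groups follow the sample labels.

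Counts were tested with edgeR 4.0.16 (limma 3.58.1, R 4.3.3): filterByExpr with a minimum count of 10, TMM scaling, 1 quasi-likelihood model of the 3 groups over 13735 genes, a two-sided F test and Benjamini-Hochberg adjusted p at 0.05. The standard error (SE) of a log2 fold change was derived from the test, as its absolute value divided by the square root of F. The spread gave a biological coefficient of variation of 18.7%. Pairing by replicate number was read from the data, since the labels do not state it. Departures from the group mean correlated at 0.191 to 0.452 between a CD45RBhi and a CD45RBlo library with the same number, and at no more than 0.0284 with different numbers. The paired fit used the 8 memory libraries. Naive numbers did not pair (-0.101 to 0.0565). Among 15 pairs of libraries of 1 group, none was identical, and chi-square per degree of freedom was 10.3 to 94.0. Alternatives were DESeq2 1.42.0, library size scaling, scaling without mt- genes, no filter, only the 2 groups compared, a length and GC correction, the replicate block, and each library left out. Scripts were tested on simulated data. Copies were found with BLAST 2.17.0.

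Members and lists were chosen with earlier results of these data known. Named with values were members called between the memory groups, the 6 largest rises and falls against naive, all mt- genes, complex II and the subunits with several gene forms, and other members by counts. Further genes were named after their values were seen. Values of 1 complex I member are not reported here by name, and it stays in the counts and medians.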

Additional observations from a re-analysis of the deposited data

Results flagged for a closer look

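Sdhb, the iron-sulfur subunit of complex II, had 1 library apart from its group. In CD45RBlo replicate 2 it was at 208 CPM, whereas the other 3 CD45RBlo libraries were at 171 to 177 CPM. The gap to the nearest library was 0.84 of the range of the group. Dixon's test at 95% was applied to 70 groups of 4 libraries, and chance marks about 1 in 20 such groups. In CD45RBhi, replicate 2 was also the highest library for Sdhb, at 220 CPM.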

How the results depend on the processing

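Between CD45RBhi and CD45RBlo, nuclear members higher numbered 0 by the unpaired test, 1 by DESeq2 and 4 with the replicate block, and 0 to 8 when the block was fitted with 1 pair left out. For CD45RBhi against naive, 41 nuclear members were higher, against 15 with library size scaling and 21 to 42 with 1 library left out. The 3 lower ones became 7 with library size, 1 without the filter, 1 without replicate 1 of both memory groups, and 1 to 3 with 1 library left out. Lower mt- members, 0 at first, were 1 with library size, 1 without the filter, 1 with the replicate block, 3 with the block and the length and GC correction, 7 without replicate 1 and 1 without replicate 2 of both memory groups, and 0 to 5 with 1 library left out.

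For CD45RBlo against naive, 15 nuclear members were higher, against 4 with library size, 29 with the length and GC correction, 29 with the replicate block as well, 9 without replicate 1 of both memory groups, and 4 to 19 with 1 library left out. The 4 lower ones became 11 with library size, 7 without replicate 2 of both memory groups and 2 to 5 with 1 library left out. Lower mt- members, 1 at first, were 4 with library size, 3 without the filter, 4 with only the 2 groups compared, 6 with the replicate block, 3 with the block and the correction, 7 without replicate 1 of both memory groups, and 0 to 4 with 1 library left out. Single libraries moved these counts: lower nuclear members in CD45RBhi were 1 without CD45RBhi replicate 1 or 4 or any naive library, and in CD45RBlo 2 without naive replicate 1 or 3. Lower mt- members were 1 in CD45RBhi without CD45RBlo replicate 2, 2 in CD45RBlo without CD45RBhi replicate 2, and 0 in CD45RBlo without naive replicate 2 or 3. Against naive, the block gave naive libraries their own numbers, which did not pair with memory ones. The settings that drop a replicate number from both memory groups were added after seeing the data.

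Library size scaling moved the nuclear median to 0.13 in CD45RBhi and 0.0090 in CD45RBlo against naive. As a log2 ratio of shares, nuclear members stood at 0.03 and -0.09 against naive. Taken instead as the median over members of TMM-scaled log2 CPM, which changes both the scaling and the weighting, the differences were 0.34 and 0.17. The cause of these changes was not tested. Between the memory groups, the mt- median of 0.19 changed sign, ranging from -0.17 to 0.38 with 1 library left out and reaching -0.01 with the block and the correction. With the replicate block, 41 of the 44 members called in CD45RBhi and 18 of the 20 called in CD45RBlo against naive kept their call. Of the members called against naive, 15 of 41 higher and 1 of 3 lower in CD45RBhi, and 4 of 15 higher and 2 of 5 lower in CD45RBlo, kept their call in all 21 settings. Depth limits the silent complex IV forms, and mt-Nd3 and mt-Nd4l rest on few counts.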
